A study of Mus musculus with 6 samples.

Results

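ADAM proteins form a family of membrane-anchored metalloproteases that carry a disintegrin domain, though some members lack protease activity. ADAMTS proteins are secreted relatives with thrombospondin repeats, and ADAMTS-like proteins keep the repeats but lack the protease domain. Members of all these groups were taken here as every gene probe of the array whose gene name is Adam, Adamts or Adamtsl followed by a digit. This gave 103 of 41174 gene probes, which carry 54 of 27376 gene names. The probes were measured in testes of 3 Prss54KO mice and 3 WT mice, all males of 6 to 8 weeks on a mixed 129Sv/C57BL/6 background. Prss54 encodes a serine protease family member, and the labels give the Prss54KO mice as its knockout. How the gene was disrupted and which mice were littermates are not given in the sources used here. The p-values measure the spread between 3 animals of each genotype, each on its own array. Total RNA, 0.5 ug per mouse, was labelled with Cy3 and hybridised to 1 Agilent array of 1 colour per mouse. Slide 1 carried Prss54KO replicate 3, slide 2 carried Prss54KO replicates 1 and 2 beside WT replicate 3, and slide 3 carried the remaining WT replicates 1 and 2. The main comparison had no term for the slide, so differences between slides are part of the measured spread and of the genotype difference.

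In the mouse, many ADAM genes are transcribed mainly in male germ cells. ADAM1B and ADAM2 form the fertilin complex of the sperm surface, ADAM1A pairs with ADAM2 in the endoplasmic reticulum of germ cells, and loss of ADAM3 from sperm prevents their passage into the oviduct and their binding to the egg coat. Such proteins are folded by testis chaperones, moved to the surface and processed during sperm maturation. Outside germ cells, ADAM10 and ADAM17 release the outer parts of membrane proteins, while ADAMTS enzymes trim procollagen or cut large matrix proteoglycans.

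What an array reports for such a gene is the binding of labelled RNA to a probe of 60 bases. The sequences that follow are of probes of genes that the results name, as the files give them, written 5′ to 3′ in lower case. Coordinates are on mouse build mm9. They begin with germ cell genes that gave high signals in testis. The Adam2 probe lies at chr14:66648532-66648591 on the minus strand, that of Adam18 at chr8:25740120-25740179 (minus), and that of Adam32 at chr8:25981171-25981230 (minus). The Adam18 probe printed here is A_52_P97694, while the Adam18 signals given below are of another probe, A_51_P347154. The Adam5 probe spans 34057 bases of genome from chr8:25857993-25892049 (minus), so it crosses a splice junction.
Adam2: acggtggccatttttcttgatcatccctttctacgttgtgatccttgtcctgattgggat
Adam18: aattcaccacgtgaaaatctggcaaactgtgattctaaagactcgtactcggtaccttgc
Adam32: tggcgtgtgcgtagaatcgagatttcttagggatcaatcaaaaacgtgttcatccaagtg
Adam5: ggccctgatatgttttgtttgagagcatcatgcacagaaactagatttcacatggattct

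Adam6a and Adam6b are close copies, and Adam26a and Adam39 belong to a run of related genes on chromosome 8. The Adam6a probe lies at chr12:114783663-114783722 and the Adam6b probe at chr12:114729640-114729699, both on the plus strand. The Adam26a probe lies at chr8:44654297-44654356 (minus) and the Adam39 probe at chr8:41910619-41910678 (plus). No probe of the 103 shared a run of 25 bases with a probe of another gene name. Binding of a probe to transcripts of a gene's copy was not tested.
Adam6a: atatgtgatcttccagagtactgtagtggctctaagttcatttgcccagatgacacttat
Adam6b: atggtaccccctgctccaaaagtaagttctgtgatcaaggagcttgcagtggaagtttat
Adam26a: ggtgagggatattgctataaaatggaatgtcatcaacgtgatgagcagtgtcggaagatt
Adam39: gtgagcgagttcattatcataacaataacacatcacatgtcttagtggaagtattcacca

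The probes with the smallest p-values of the family belong to Adamts14 and Adamts9, and they are shown with further probes of the same genes. The Adamts14 probes A_52_P170538 and A_52_P156763 lie at chr10:60663111-60663170 and chr10:60668150-60668209, both minus. The Adamts9 probes A_51_P407417, A_51_P479390 and A_52_P49321 lie at chr6:92743256-92743315, chr6:92876348-92876407 and chr6:92723051-92723110, all minus. The files tie A_52_P49321 to the RefSeq transcript NM_175314 and the other two to separate Ensembl transcripts, ENSMUST00000125490 for A_51_P407417 and ENSMUST00000136751 for A_51_P479390.
Adamts14 A_52_P170538: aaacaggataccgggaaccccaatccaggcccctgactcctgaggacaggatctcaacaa
Adamts14 A_52_P156763: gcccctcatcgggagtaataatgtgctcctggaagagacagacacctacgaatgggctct
Adamts9 A_51_P407417: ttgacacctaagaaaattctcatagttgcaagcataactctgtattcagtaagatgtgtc
Adamts9 A_51_P479390: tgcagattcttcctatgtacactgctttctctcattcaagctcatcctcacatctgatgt
Adamts9 A_52_P49321: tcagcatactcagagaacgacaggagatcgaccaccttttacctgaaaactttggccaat

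The arrays were alike in brightness, with median processed signals of 203.1 to 219.7 intensity units, 66.2% to 74.8% of gene spots well above background and no saturated gene spot. Prss54 checked the labels: its probe gave 7381, 9466 and 8416 units in Prss54KO, against 22677, 24152 and 26120 units in WT. All Prss54KO arrays lay below all WT arrays, and signal remained in Prss54KO. The probe lies at chr8:98082993-98083052, and whether that is inside the disrupted part was not given. The log2 difference was -1.56 (SE 0.10, 95% interval -1.81 to -1.31), with limma's adjusted p = 0.108 over 28913 probes and an exact permutation p of 0.1, the smallest that 3 against 3 allows. All 9 germ cell markers, such as the protamines Prm1 and Prm2, were well above background on all 6 arrays. Of 9 epididymis markers, Crisp1, Gpx5, Lcn5, Lcn8 and Rnase9 were above background on no array, and Defb41, Lcn9, Lcn12 and Rnase10 were above background on all 6, with differences of 0.20, 0.52, 0.02 and 0.12. The summed level of the 9 was 0.673, 0.612 and 0.675 in Prss54KO, against 0.537, 0.601 and 0.590 in WT, in multiples of the array's 75th percentile. In whole testis RNA, fewer cells of a type and less RNA per cell cannot be told apart.

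The first question was which of the family are bright in WT testis. The level of a probe is its log2 signal scaled so that 0 is the 75th percentile of its own array, and a probe was called bright where this level was above 0 on all 3 WT arrays. By this rule 24 of the 103 probes (23.3%) were bright, and over all gene probes the share was 24.6%. The bright probes belonged to 20 genes. Of these, 17 genes with 21 probes came from the list of sperm and testis ADAM genes, namely Adam1a, Adam1b, Adam2, Adam3, Adam4, Adam5, Adam6a, Adam6b, Adam18, Adam21, Adam24, Adam25, Adam26a, Adam29, Adam30, Adam32 and Adam39. Adam1a, Adam1b, Adam29 and Adam30 each also had a probe that was not bright, with mean WT levels of -0.14, -1.86, -0.46 and -0.48. The other bright genes were Adam9 and Adam15, which are expressed in many tissues, and Adamts2, a procollagen N-proteinase. Whether bright signal came from germ cells or from other cells of the testis was not tested.

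**Figure D1:**
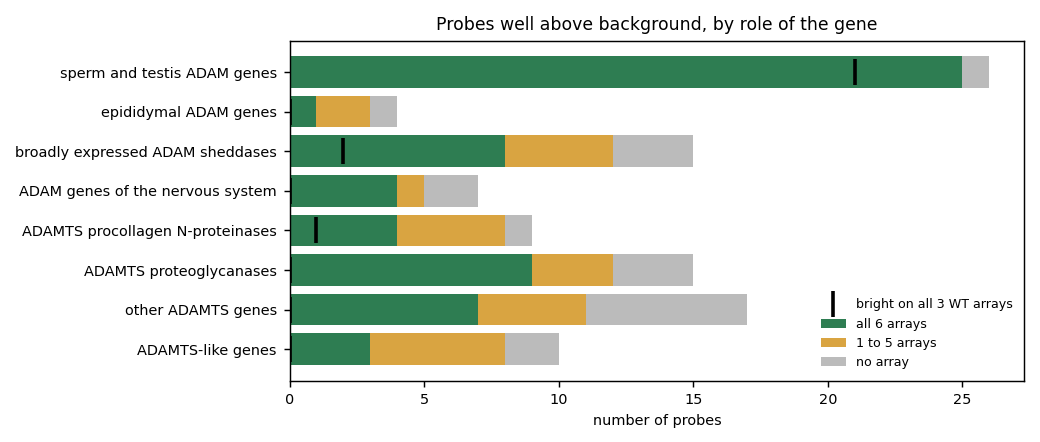
Number of probes (horizontal axis) in each list of genes, coloured by how many of the 6 arrays had the probe well above background, with a black mark at the number bright on all 3 WT arrays. Sperm and testis ADAM genes had 25 of 26 probes above background on all 6 arrays, while the ADAMTS-like genes had 3 of 10.

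Of the 103 probes, 61 (59.2%) were well above background on all 6 arrays, where the share over all gene probes was 65%. Another 23 were above background on 1 to 5 arrays and 19 on none. The list of sperm and testis ADAM genes stood at 25 of 26 probes on all 6 arrays. Its only other probe, that of Adam20, gave 9.991, 8.743 and 5.138 units in Prss54KO, against 7.393, 6.144 and 6.548 units in WT, and was not above background on any array. The ADAMTS proteoglycanases had 9 of 15 probes on all 6 arrays, the procollagen N-proteinases 4 of 9, the other ADAMTS genes 7 of 17 and the ADAMTS-like genes 3 of 10. None of the proteoglycanase, other ADAMTS and ADAMTS-like probes was bright in WT.

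Adam7, known from the epididymis, was above background on no array, with 9.88, 8.454 and 4.894 units in Prss54KO, against 7.183, 6.758 and 6.402 units in WT. Adam28, another epididymal gene, had 3 probes that disagreed. A_52_P227469 was above background on all 6 arrays at 51.38 to 73.46 units in Prss54KO and 47.52 to 65.91 units in WT. A_52_P302284 gave 169.9 units in Prss54KO replicate 2 and at most 10.19 on any other array, and A_52_P250161 gave 35.09 units in WT replicate 2 and at most 9.462 on any other array. Each of these isolated values came from 1 array, and the probes were not tested.

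In 10 of 32 genes with several probes, some probes were above background on all 6 arrays and others on none. These were Adam23, Adamts3, Adamts9, Adamts10, Adamts12, Adamts18, Adamts19, Adamts20, Adamtsl1 and Adamtsl3. Adamts20, a proteoglycanase, had A_52_P242480 at 697.6 to 844.4 units in Prss54KO and 679.1 to 847.5 units in WT, whereas its other 2 probes were above background on no array. Adam23, a brain ADAM without protease activity, had A_51_P282144 at 251.8 to 343.2 units in Prss54KO and 251.1 to 401.3 units in WT, and A_52_P518613 above background on no array. A gene was therefore described as undetected only where all its probes were: Adam7, Adam12, Adam20, Adam22 and Adamts6. Adam19, Adamts13, Adamts16 and Adamtsl4 also had no probe that could be tested, each with isolated arrays above background. In the mouse Adam12 is expressed in precursors of muscle and fat, and ADAM22 is a receptor for LGI1 at synapses. Of the 3 Adamtsl1 probes, A_51_P478569 and A_52_P139788 are placed on chromosome 4, where RefSeq has the gene, and A_52_P92227 on chromosome 19. Adamtsl1 is among the 10 genes only through A_52_P92227, and whether that probe reports the gene was not settled.

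The second question was whether the family differed between Prss54KO and WT. A probe entered the test if 3 or more of the 6 arrays had it well above background, which kept 69 of the 103 (45 genes) and left out 34. Of the 69 probes, limma called 0 at an adjusted p under 0.05, and over all probes it also called 0 (0%). At an unadjusted p under 0.05 there were 2 of 69 (2.9%), against 926 of 28913 (3.2%) over all probes. The median log2 difference was 0.01 over the 69 probes and 0.01 over all probes. The 69 differences ran from -0.53 to 0.56, with 38 positive and 31 negative, and 84.1% lay within 0.2 of 0, against 89.6% over all probes.

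The genotypes did not overlap for 3 of the 69 probes, and over all probes this share was 7.81%. Every Prss54KO array lay above every WT array for 2 of the 69 probes, one of Adam17 and one of Adamts14, and over all probes the share was 4.21%. Every Prss54KO array lay below every WT array for 1 probe, of Adamts9, and over all probes the share was 3.6%. Of the 69 probes, 8 were above background on all 3 WT arrays but on 1 or 2 Prss54KO arrays, and no tested probe showed the opposite. Such a probe entered the test through its WT arrays alone, so its difference is a description. The Adamts9 probe that did not overlap, also 1 of the 2 with an unadjusted p under 0.05, is among these 8.

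**Figure D2:**
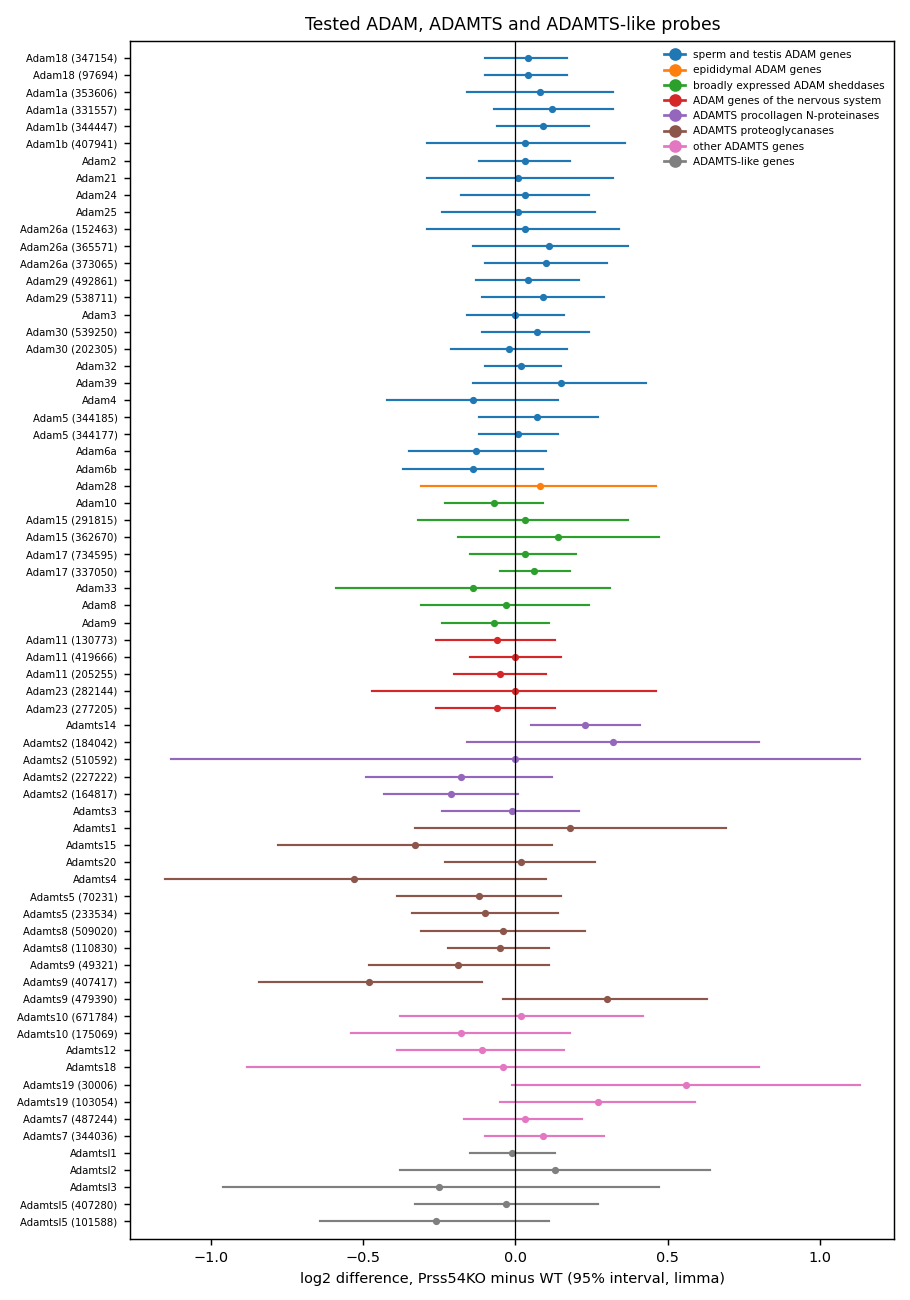
Log2 difference, Prss54KO minus WT (horizontal axis), of the 69 tested probes with limma's 95% interval, coloured by list, with the end of the probe's name in brackets where a gene has several tested probes. Points lie between -0.53 and 0.56, and the intervals of all sperm and testis ADAM probes cross 0.

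Among the sperm and testis ADAM genes, none of 25 tested probes had an unadjusted p under 0.05. Their differences ran from -0.14 to 0.15 with a median of 0.03, of which 21 were positive and 4 negative. Over all probes 15411 of 28913 were positive. Adam3 gave 121243, 121304 and 109481 units in Prss54KO, against 114790, 108018 and 121844 units in WT. The groups overlapped over most of their range, and the difference was 0.00 (SE 0.07, 95% interval -0.16 to 0.16).

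Adam2, the fertilin beta subunit, gave 71683, 67116 and 70936 units in Prss54KO, against 68233, 66924 and 66082 units in WT. Its difference was 0.03 (SE 0.06, 95% interval -0.12 to 0.18). Adam1a had 17158, 17781 and 15406 units in Prss54KO, against 14599, 14169 and 18138 units in WT, at the probe A_51_P353606. WT replicate 3 gave the highest signal, and the difference was 0.08 (SE 0.10). Adam1b had 27364, 26220 and 29314 units in Prss54KO, against 24759, 25694 and 25841 units in WT, at A_51_P344447. These signals did not overlap before scaling, the scaled levels did, and the difference was 0.09 (SE 0.06, 95% interval -0.06 to 0.24).

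Adam18, Adam5 and Adam32 lie beside Adam3 on chromosome 8 and encode sperm proteins. Adam18 at A_51_P347154 gave 45713, 44004 and 46310 units in Prss54KO, against 43414, 43406 and 42940 units in WT, with a difference of 0.04 (SE 0.06) and scaled levels that overlapped. The printed Adam18 probe, A_52_P97694, gave 0.04 (SE 0.05). Adam5 at A_51_P344185 gave 119202, 115693 and 113371 units in Prss54KO, against 109479, 94701 and 121417 units in WT. WT replicate 2 gave the lowest and WT replicate 3 the highest signal, and the difference was 0.07 (SE 0.08). The junction probe of Adam5 gave 0.01 (SE 0.05), and Adam32 gave 0.02 (SE 0.05).

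The 4 sperm and testis probes with negative differences were those of Adam4, Adam6a, Adam6b and Adam30 at A_51_P202305, and the second probe of Adam30 was positive. Adam6a gave 4801, 4749 and 4082 units in Prss54KO, against 4696, 4455 and 5456 units in WT, a difference of -0.13 (SE 0.09). Adam6b gave 4268, 4358 and 3622 units in Prss54KO, against 4337, 4039 and 4871 units in WT, a difference of -0.14 (SE 0.09). Prss54KO replicate 3 was the lowest and WT replicate 3 the highest for both copies. Their probes differ in sequence as printed above, and whether each also bound transcripts of the other copy was not tested. Adam4 had -0.14 (SE 0.12), with the same arrays lowest and highest.

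**Figure D3:**
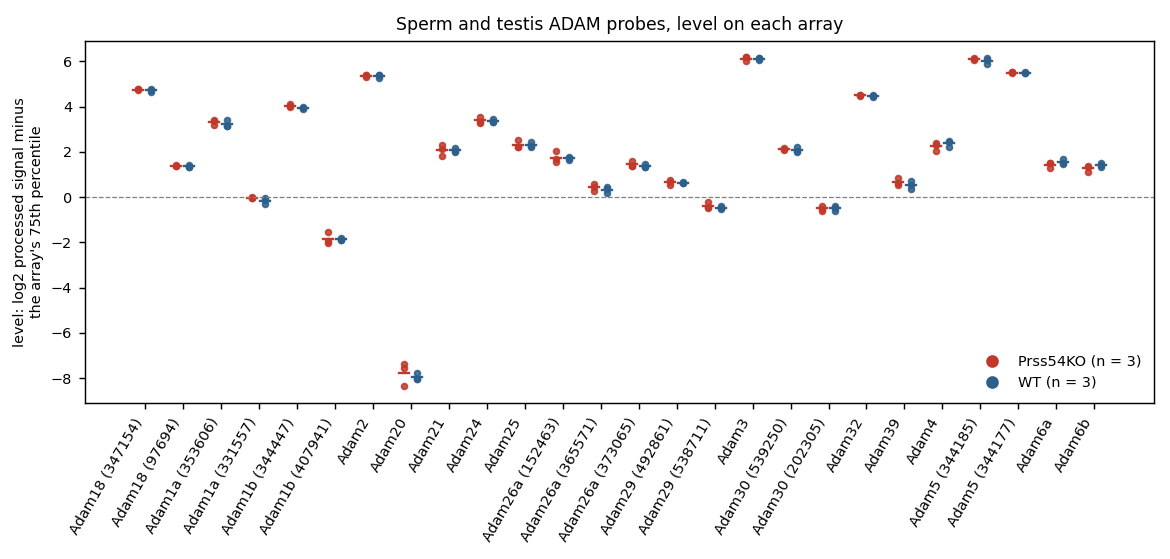
Level on each array (vertical axis, scaled log2 signal, with 0 at the 75th percentile of the array as a dashed line) of the sperm and testis ADAM probes in Prss54KO (red) and WT (blue), with points for mice and bars for means of 3. Heights of different probes are not comparable. Within each probe the genotypes lie together, and Adam20 alone is below background.

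Adam21 gave 7381, 8180 and 6015 units in Prss54KO, against 6510, 6593 and 7722 units in WT, so Prss54KO held both the highest and the lowest array, and the difference was 0.01 (SE 0.13). Adam29 at A_52_P492861 gave 2664, 2834 and 2481 units in Prss54KO, against 2479, 2434 and 2699 units in WT, with a difference of 0.04 (SE 0.07). Adam30 at A_52_P539250 gave 7446, 7132 and 7678 units in Prss54KO, against 6655, 7379 and 6821 units in WT, with a difference of 0.07 (SE 0.07). The 3 Adam26a probes gave 0.03 (SE 0.13), 0.11 (SE 0.11) and 0.10 (SE 0.08). In all of them the genotypes overlapped.

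Over the 24 bright probes the differences ran from -0.18 to 0.15 with a median of 0.03, and 19 were positive. The smallest unadjusted p was 0.18, and the groups overlapped for every bright probe. The 95% intervals of these probes reached no lower than -0.49 and no higher than 0.43, so differences beyond 1.40-fold lower or 1.35-fold higher in Prss54KO lay outside every interval. That range is the precision that 3 mice of each genotype gave. On slide 2 alone, which holds both genotypes, Adam3 differed by 0.03, Adam2 by 0.11 and Adam18 at A_51_P347154 by 0.10. The only WT array of that slide is replicate 3. Every value given for slide 2 alone therefore rests on that WT mouse, with no spread between WT mice.

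The broadly expressed sheddases had 8 tested probes with differences of -0.14 to 0.14 and 0 with an unadjusted p under 0.05. Adam10, which cleaves Notch receptors among others, gave 81.96, 70.99 and 79.29 units in Prss54KO, against 78.11, 76.19 and 84.12 units in WT. The groups overlapped, and the difference was -0.07 (SE 0.07). Adam17, the enzyme that releases tumour necrosis factor, gave 975.9, 978.0 and 1026 units in Prss54KO, against 919.5, 914.2 and 957.8 units in WT, at A_52_P337050. Here the groups did not overlap, at a difference of 0.06 (SE 0.05, 95% interval -0.05 to 0.18, unadjusted p = 0.234 by limma). The second Adam17 probe gave 0.03 (SE 0.07) with overlapping groups.

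Adam9 and Adam15 were the bright sheddases. Adam9 gave 2379, 2385 and 2191 units in Prss54KO, against 2265, 2472 and 2407 units in WT, with a difference of -0.07 (SE 0.07). Adam15 at A_51_P291815 gave 2601, 3601 and 3462 units in Prss54KO, against 2896, 3295 and 3030 units in WT. Prss54KO held both the lowest and the highest array, and the difference was 0.03 (SE 0.14). A_52_P362670 of Adam15, which was not bright, gave 0.14 (SE 0.14). The 5 tested probes of the brain genes Adam11 and Adam23 had differences of -0.06 to 0.00.

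Among procollagen N-proteinases, Adamts14 had the smallest p. A_52_P170538 gave 239.6, 248.6 and 264.7 units in Prss54KO, against 195.9, 198.5 and 237.6 units in WT. The groups did not overlap, and WT replicate 3 came within a few units of the lowest Prss54KO array. The difference was 0.23 (SE 0.07, 95% interval 0.05 to 0.41), with an unadjusted p = 0.0214 and an adjusted p = 1 by limma. Over all probes, 1.73% were higher in Prss54KO at an unadjusted p under 0.05. On slide 2 alone the difference was 0.07. The second Adamts14 probe, printed above, gave 31.77, 30.41 and 34.23 units in Prss54KO, against 21.98, 22.83 and 29.47 units in WT. It was above background on 1 Prss54KO array only and was not tested.

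Adamts2 had 4 tested probes, of which only A_51_P227222 was bright. That probe gave 1962, 1651 and 2031 units in Prss54KO, against 2108, 1741 and 2465 units in WT, with a difference of -0.18 (SE 0.13). A_51_P164817 gave 311.8, 279.5 and 336.8 units in Prss54KO, against 368.3, 310.8 and 372.4 units in WT, with a difference of -0.21 (SE 0.09, unadjusted p = 0.0595 by limma). In both the groups overlapped and replicate 2 was the lowest array of its genotype. Within slide 2 they differed by -0.42 and -0.30. The dimmer probes A_52_P184042 and A_52_P510592 gave 0.32 (SE 0.20) and 0.00 (SE 0.46), and were above background on 2 Prss54KO arrays each.

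The ADAMTS proteoglycanases had 11 tested probes, 3 with positive and 8 with negative differences and a median of -0.10. Adamts9 had 4 probes that did not move alike. A_51_P407417 gave 32.01, 41.95 and 44.75 units in Prss54KO, against 53.78, 57.82 and 48.81 units in WT. All Prss54KO arrays lay below all WT arrays, at a difference of -0.48 (SE 0.15, 95% interval -0.84 to -0.11), with an unadjusted p = 0.0191 and an adjusted p = 1 by limma. Over all probes, 1.48% were lower in Prss54KO at an unadjusted p under 0.05. The probe was above background on 1 Prss54KO array and 3 WT arrays, so it was tested only because of its WT arrays, where it was higher. Its p and its lack of overlap are therefore descriptions. With the filter on all 6 arrays it was not tested.

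A_51_P479390 of Adamts9 gave 57.1, 51.82 and 68.83 units in Prss54KO, against 53.33, 39.62 and 49.07 units in WT. Its difference was 0.30 (SE 0.14, 95% interval -0.04 to 0.63), opposite in sign, and it too was above background on 1 Prss54KO array and 3 WT arrays. The brightest Adamts9 probe, A_52_P49321, gave 667.4, 649.5 and 513.5 units in Prss54KO, against 707.8, 602.6 and 724.7 units in WT, a difference of -0.19 (SE 0.12). A_52_P237241 was above background on no array. Of 19 genes with several tested probes, Adamts9 was the only one whose 95% intervals did not all overlap, through these 2 probes that were tested only because of their WT arrays, and 14 of the 19 had probe differences within 0.2 of each other.

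Adamts4 and Adamts15, which cut aggrecan and versican, had differences of -0.53 (SE 0.26) and -0.33 (SE 0.18). Adamts4 gave 115.5, 97.55 and 109.4 units in Prss54KO, against 146.4, 214.6 and 110.5 units in WT. WT replicate 2 stood far above the others, and WT replicate 3 lay beside the Prss54KO arrays. Adamts15 gave 180.3, 189.9 and 242 units in Prss54KO, against 281.9, 272.2 and 201.8 units in WT, where the groups overlapped through WT replicate 3. Adamts5, known as an aggrecanase in cartilage, had -0.12 (SE 0.11) and -0.10 (SE 0.10) at its probes. Adamts1 had 0.18 (SE 0.21).

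**Figure D4:**
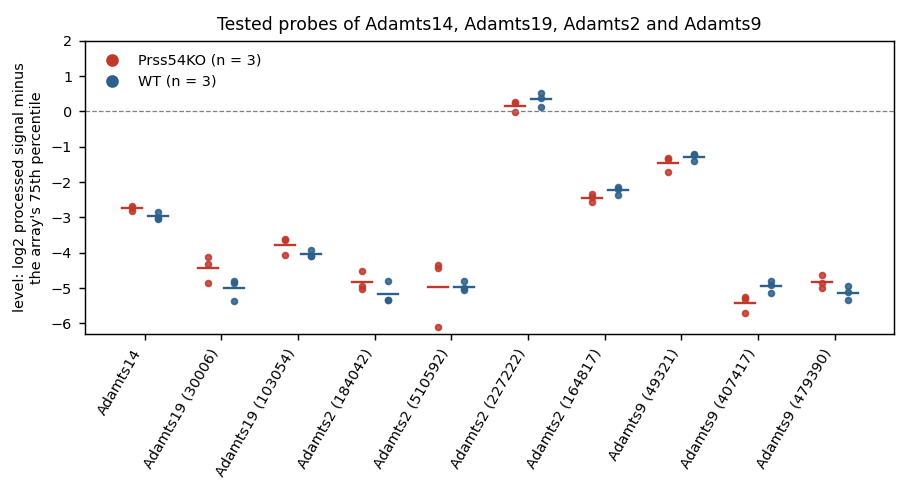
Level on each array (vertical axis, scaled log2 signal, with 0 at the 75th percentile of the array as a dashed line) for the tested probes of Adamts14, Adamts19, Adamts2 and Adamts9 in Prss54KO (red) and WT (blue), with points for mice and bars for means of 3. Adamts9 probes A_51_P407417 and A_51_P479390 differ in opposite directions, by -0.48 and 0.30.

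Of the other ADAMTS genes, Adamts19 had the largest difference of all tested probes of the family. A_52_P30006 gave 83.93, 94.75 and 57.69 units in Prss54KO, against 56.37, 57.61 and 41.59 units in WT. The scaled levels overlapped, since Prss54KO replicate 3 lay beside the 2 brighter WT arrays, and the difference was 0.56 (SE 0.24, 95% interval -0.01 to 1.13, unadjusted p = 0.0544 by limma). A_51_P103054 gave 137.3, 100.2 and 134.5 units in Prss54KO, against 106.9, 93.99 and 99.46 units in WT, with a difference of 0.27 (SE 0.13, unadjusted p = 0.0873). On slide 2 alone the values were 1.14 and 0.27. Adamts7, which cleaves cartilage oligomeric matrix protein, had 0.03 (SE 0.08) and 0.09 (SE 0.08).

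The ADAMTS-like genes, whose products bind fibrillin microfibrils in several cases, had 5 tested probes with 1 positive and 4 negative differences. Adamtsl3 at A_51_P213077 gave 147.6, 114.2 and 142.9 units in Prss54KO, against 169.7, 215.6 and 103.4 units in WT. The WT arrays enclosed the Prss54KO arrays, and the difference was -0.25 (SE 0.29), with 0.36 on slide 2 alone. Adamtsl5 at A_51_P101588 gave 45.99, 36.86 and 52.02 units in Prss54KO, against 49.8, 45.01 and 63.66 units in WT, with a difference of -0.26 (SE 0.15) and -0.59 on slide 2 alone. This probe was above background on 1 Prss54KO array and 3 WT arrays. It was tested only because of its WT arrays, where it was higher, so its difference is a description.

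Markers of connective tissue were measured on the same arrays. All 6 fibroblast and matrix markers (Col1a1, Col1a2, Col3a1, Dcn, Lum and Pdgfra) had negative differences, with a median of -0.54, and all were above background on 6 arrays. Their summed level, in multiples of the array's 75th percentile, was 27.6, 20.4 and 29.5 in Prss54KO, against 30.9, 28.4 and 36.7 in WT, so the genotypes overlapped. All 6 macrophage and all 4 blood markers had negative differences too, with medians of -0.06 and -0.51. Blood markers summed to 11.7, 14.2 and 10.6 in Prss54KO, against 26.4, 10.4 and 16.7 in WT. Endothelial markers summed to 3.38, 3.3 and 2.96 in Prss54KO, against 3.33, 3.25 and 3.3 in WT. Of the peritubular myoid and smooth muscle markers, 4 of 5 had negative differences, with a median of only -0.03. The same held for 4 of 5 adipose markers (median -0.35), 5 of 7 Leydig cell markers (-0.04) and 5 of 9 Sertoli cell markers (-0.02). Germ cell markers summed to 1080, 1100 and 1030 in Prss54KO, against 1070, 1030 and 1080 in WT. Of the tested ADAMTS probes, proteoglycanases had 3 positive and 8 negative differences, procollagen N-proteinases 3 and 3, and other ADAMTS genes 5 and 3. Adamts4, Adamts5 and Adamts15 had negative differences, and Adamts1, Adamts14 and Adamts19 positive ones. For Adamts2, the brighter A_51_P227222 and A_51_P164817 were negative, and the dimmer A_52_P184042 and A_52_P510592 gave 0.32 and 0.00. The part of connective tissue in any of these differences was not tested.

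Position was examined because Prss54 lies on chromosome 8, as do 12 genes of the family with 18 probes. The nearest, Adamts18, lies 18.1 Mb from Prss54 and had a difference of -0.04 (SE 0.35). The sperm and testis genes lie farther away: Adam18, Adam3, Adam5 and Adam32, with the broadly expressed Adam9, at 25 to 27 Mb, Adam24, Adam25, Adam39 and Adam26a at 41 to 45 Mb, and Adam29 at 58 Mb. A pattern across single arrays was noticed after the values were seen. In the group at 41 to 45 Mb, Prss54KO replicate 2 was the highest Prss54KO array and WT replicate 3 the highest WT array for 5 of 6 probes, and for 2 of the 31 other tested probes in that stretch. The share over all tested probes was 10.8%. In the group at 25 to 27 Mb the same held for 1 of 7 probes, and at 58 Mb for both Adam29 probes.

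Adam24 gave 16532, 19679 and 17044 units in Prss54KO, against 16313, 16006 and 18693 units in WT. Adam25 gave 7768, 9520 and 7937 units in Prss54KO, against 7697, 7624 and 9205 units in WT. Adam39 gave 2474, 2973 and 2660 units in Prss54KO, against 2090, 2279 and 2843 units in WT. In each gene 1 array of each genotype stood above the other 2, while the genotypes differed by 0.03 (SE 0.09), 0.01 (SE 0.10) and 0.15 (SE 0.12). Over all chromosomes, 12 of 25 sperm and testis probes showed the pattern, a count that includes the chromosome 8 probes above. Those that lay off chromosome 8 were of Adam1a, Adam21 and Adam6b. Of the 44 other tested probes of the family, 3 showed it. No test was made of the pattern. Prss54KO replicate 2 and WT replicate 3 were both on slide 2, as was Prss54KO replicate 1. Each mouse had 1 array, so mouse and array cannot be told apart, and the part of the slide was not tested.

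**Figure D5:**
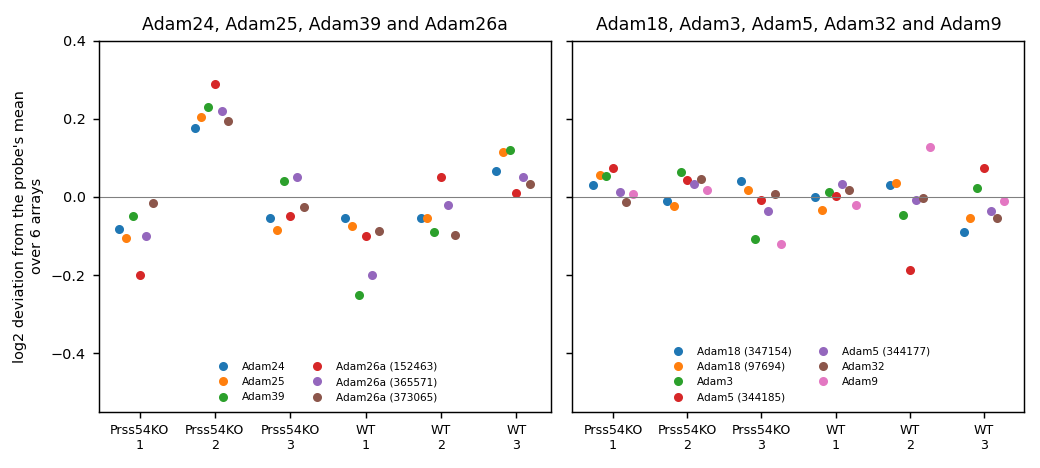
Deviation of each array from the probe's mean over 6 arrays (vertical axis, log2) for the probes at 41 to 45 Mb (left) and at 25 to 27 Mb (right) of chromosome 8, with 1 colour per probe. On the left Prss54KO replicate 2 lies 0.18 to 0.29 above the mean and WT replicate 3 lies 0.01 to 0.12 above it, and on the right these arrays lie at -0.02 to 0.06 and -0.09 to 0.07.

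Genes that act on these proteins were read beside them. Of 29 tested probes for factors of sperm ADAM maturation, a list with the chaperones Clgn, Calr3 and Pdilt, limma called 0, 1 had an unadjusted p under 0.05 (3.2% over all probes) and the median difference was 0.00. That probe was of Tpst1, a tyrosylprotein sulfotransferase, at 0.16 (SE 0.05), and Hspa5, a chaperone of the endoplasmic reticulum, had -0.11 (SE 0.07). On this list 27 of 31 probes were bright in WT, where the share over all gene probes was 24.6%. Of 23 tested probes for trafficking factors and inhibitors, 0 had an unadjusted p under 0.05 and the median was -0.03, with Timp3, a tissue inhibitor of metalloproteases, at -0.14 (SE 0.06) and Rhbdf2, a partner of ADAM17, at 0.08 (SE 0.06). Of 48 tested probes for substrates and partners, with differences of -1.23 to 0.28, limma called 0. At an unadjusted p under 0.05, 2 of them were lower (1.48% over all probes), Col3a1 at -0.67 (SE 0.25) and Col1a1 at -0.73 (SE 0.28). These collagens are also fibroblast markers above.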

How the data were processed

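Testis RNA of 3 Prss54KO and 3 WT mice was measured on 6 arrays. Per the file headers, the deposited scanner files hold spot intensity on a linear scale from Agilent Feature Extraction 10.7.3.1 (10.7 per the submitters' processing notes), after the software's treatment of background. The deposited files also mark spots well above background, saturated or outlying. The deposited series table holds the authors' log2 values for 41267 probes. Every array in it has the same median of 7.72, minimum of 2.71 and maximum of 18.95, as values put on a common distribution would. It correlated with each array's own log2 signal at r of 0.9991 or more, and its direction and scale follow that signal, while the sources used here name no software for its normalization.

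Outlier spots (86 to 142 per array) were left out and spots of a probe averaged. The level was the log2 signal less the 75th percentile of its array. Probes that 3 or more of 6 arrays had well above background were compared with limma 3.58.1 in R 4.3.3 (two-sided, Benjamini-Hochberg over 28913 probes, threshold 0.05). The method was tested on simulated data. Differences are Prss54KO minus WT, and SE and intervals are limma's moderated values. The number of arrays limits the precision. Probe positions are those of mm9 in the files. Of the 103 probes, 80 matched RefSeq (GRCm38.p6) by accession and 23 by symbol. Protein sequences were not analysed here, so the planned search for the zinc-binding motif was not made.

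The members, gene lists and tests were chosen with earlier results of these data known. Genes named were Prss54, genes bright in WT, the 2 probes with the smallest p of each list, probes at an unadjusted p under 0.05 and genes whose probes disagree. Adamts1, Adamts4, Adamts5, Adamts7, Adamts15 and small groups of undetected genes were named after their values were seen. Alternatives were other scalings, normexp background (offset 50), the authors' table, other filters, probe summaries, an intensity trend, array weights, the slide, a replicate block and leaving out each array. The authors' table and quantile scaling gave 961 and 963 of 28913 probes at limma's unadjusted p under 0.05, so they are hardly separate checks. Same-numbered Prss54KO and WT replicates did not deviate together (r of -0.04, 0.02 and -0.15), so the numbers were not taken as pairs.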

Additional observations from a re-analysis of the deposited data

How the results depend on the processing

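The count of probes of the family past the threshold was 0 in all 20 alternatives, and 24 probes were bright in WT wherever that was recomputed. Over all probes the count was 1 with normexp background and 1 with the filter on all 6 arrays (Prss54 in each), 2 with an intensity trend and robust variance (Cngb1 and Prss54), and 1 with the slide as a fixed block (Klf1). The cause was not tested. Prss54 had adjusted p = 0.00516 with normexp (-1.54), 0.0485 with the filter on all 6 arrays (-1.56) and 0.00955 with the trend (-1.56), against 0.108 in limma's main setting. Fewer probes were tested under that filter. Leaving out each array in turn moved Prss54 between -1.66 and -1.47. The median difference of the family was -0.02 with the slide as a fixed block and -0.02 on slide 2 alone, against 0.01. These are 1 estimate and not 2 checks, since only slide 2 holds both genotypes. With the replicate block, 0 probes were called, Prss54 had -1.56 at adjusted p = 0.911, and 7 of 69 family probes (10.1%) had an unadjusted p under 0.05, against 3.9% of all probes. Across all alternatives that number was 1 to 7. It was 5 without Prss54KO replicate 3 (3.51% of all probes), 1 without WT replicate 1 (2% of all probes, or 578) and 6 without WT replicate 3 (6.24% of all probes, or 1803, against 926 with all arrays). Of 726 recomputed differences of 39 named probes, 43 changed sign, 27 moved by more than the SD between replicates, and 0 passed the threshold. Adamts14 stayed at 0.07 to 0.29 and Adamts9 A_51_P407417 at -0.57 to -0.15, the value nearest 0 with normexp. Many ADAMTS and ADAMTS-like probes and the epididymal ADAM probes lay near background, which limits what they can show.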
